A study of Mus musculus with 3 samples.

Results

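The comparison is of colonic mucosa from mir-10b knockout mice given a synthetic miR-10b-5p against colonic mucosa from mir-10b knockout mice without it, and it covers 415 of the 471 miRNA rows in the deposited table. The rows were chosen by level: a row was kept when its mean over the 3 libraries of the study was at least 10 normalized reads. Small RNA was sequenced from 1 library per group. The library called KO here carries a global deletion of mir-10b (mir-10b-/-) and is labelled diabetic. The library called mimic carries the same global mir-10b-/- deletion, received an injection of miR-10b-5p mimic and is labelled rescue. The third library, WT, is mir-10b+/+ and labelled healthy, and its values are given only beside those of the other libraries. The labels name no mock injection, so the injection itself and the injected sequence cannot be told apart. Dose, time after injection, age, sex, strain and the number of animals behind a library are not given in the labels. With 1 library a side there is no replicate spread, so every difference below is a size of change between these libraries, with no test and no p-value.

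A miRNA is a short RNA that is cut from a hairpin precursor and guides Argonaute proteins to messenger RNAs, mainly through its seed, the stretch from base 2 to base 8. Both arms of a hairpin can yield a mature miRNA, named 5p and 3p, and one of the arms usually dominates. The gene Mir10b lies among the Hoxd genes and Mir10a among the Hoxb genes, and the mature 5p products share a seed. A miRNA mimic is a synthetic duplex with the sequence of the mature miRNA, made to enter Argonaute in its place. In the gut wall, miR-192, miR-194, miR-215 and the miR-200 family mark the epithelium, while miR-143 and miR-145 mark smooth muscle and other mesenchymal cells.

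The sequence of the deleted and injected miRNA is shown first, followed by members of its family, of which only miR-10a-5p shares its seed. All sequences are RefSeq mature sequences from the GRCm38.p6 table, which is the mm10 assembly, written 5′ to 3′ with the seed in capitals, and 341 of the 415 rows matched a sequence in that table by name.
miR-10b-5p: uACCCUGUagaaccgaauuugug
miR-10a-5p: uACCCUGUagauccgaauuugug
miR-99a-5p: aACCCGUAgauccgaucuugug
miR-100-5p: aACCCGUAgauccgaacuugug
miR-99b-5p: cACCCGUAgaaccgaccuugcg
The miR-10b-5p sequence lies at chr2:74726074-74726096 on the plus strand, in introns annotated to Hoxd3 and Hoxd4, and miR-10a-5p at chr11:96317186-96317208 on the plus strand. Counting from the 5′ end of miR-10b-5p, the only difference from miR-10a-5p is A12U. The pair miR-99a-5p and miR-100-5p likewise differs only by U16A, and both carry the seed ACCCGUA in place of ACCCUGU.

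The sequences below belong to groups that share a seed and hold large changes in reads: miR-29, miR-27, the miR-192 pair and the miR-200 family. Not every member shown changed by many reads. Added to them is miR-21a-5p, the only row with its seed, for its large change.
miR-29a-3p: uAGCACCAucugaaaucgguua
miR-29b-3p: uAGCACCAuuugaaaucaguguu
miR-29c-3p: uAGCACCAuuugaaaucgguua
miR-27a-3p: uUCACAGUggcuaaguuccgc
miR-27b-3p: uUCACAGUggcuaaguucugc
miR-192-5p: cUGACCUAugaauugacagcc
miR-215-5p: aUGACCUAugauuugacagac
miR-200a-3p: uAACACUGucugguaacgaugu
miR-141-3p: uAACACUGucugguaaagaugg
miR-200b-3p: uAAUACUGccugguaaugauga
miR-200c-3p: uAAUACUGccggguaaugaugga
miR-429-3p: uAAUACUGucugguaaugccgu
miR-21a-5p: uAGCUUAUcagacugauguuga
The miR-200 family falls into a pair with the seed AACACUG and a trio with the seed AAUACUG, and members of both groups are made from 1 stretch on chromosome 4. Counted from the 5′ end of miR-200a-3p, miR-200b-3p differs by C4U, U9C, C17U and U22A, the first of which lies in the seed. miR-29a-3p and miR-29c-3p differ only by C10U, and miR-27a-3p and miR-27b-3p only by C19U, so both of those differences lie outside the seed.

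For miR-10b-5p, which the deleted gene encodes, the listed values were 18057 (WT), 14 (KO) and 469 (mimic) normalized reads. The mimic library therefore held 33.5 times the KO value and 2.60% of the WT value. In the order of rows by level, miR-10b-5p stood at place 44 (WT), 397 (KO) and 182 (mimic). Its log2 ratio of mimic over KO, computed throughout as log2((mimic + 1)/(KO + 1)), was 4.97 on the values as deposited, 4.89 with equal totals and 5.25 with median-of-ratios scaling. Where 3 values follow a name below without further labels, they are normalized reads in the order WT, KO, mimic, and a single number in brackets after them is this log2 ratio on the deposited values. A read of the injected duplex and a read of endogenous miR-10b-5p cannot be told apart by sequence, but KO and mimic are both labelled mir-10b-/-. The source of the 14 reads in KO was not tested. Reads also do not show whether a molecule sits in Argonaute.

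The near-identical miR-10a-5p, which carries the same seed, was far more abundant than miR-10b-5p in both knockout libraries. It stood at 42206 (WT), 50417 (KO) and 49136 (mimic) normalized reads, a log2 ratio of mimic over KO of -0.04, and 0.25 with median-of-ratios scaling. The summed reads of the seed ACCCUGU were 60263 (WT), 50431 (KO) and 49605 (mimic). On the deposited values the sum was thus slightly lower in mimic than in KO although miR-10b-5p gained 455 reads, because miR-10a-5p differed by -1281 reads. miR-10b-5p made up 30.0% of that seed sum in WT, against 0.0278% in KO and 0.945% in mimic.

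Among the relatives with the seed ACCCGUA, miR-99a-5p and miR-100-5p were each listed at 14536 (WT), 24780 (KO) and 38282 (mimic) normalized reads, a log2 ratio of mimic over KO of 0.63. Rows with identical values are 1 measurement at most. miR-99b-5p was listed at 23690 (WT), 21848 (KO) and 22007 (mimic), a log2 ratio of 0.01, and -0.06 with equal totals. The passenger product miR-99b-3p was lower, at 93, 107 and 48 normalized reads in the same order. Counting miR-99a-5p and miR-100-5p once, the miR-10 and miR-100 family has 7 rows. Of these, 1 was at least 2-fold higher, the injected miR-10b-5p itself. At least 2-fold lower was 1, miR-99b-3p (-1.14, and -0.86 with median-of-ratios scaling). Over the 8 rows as listed each is 12.5%, beside 13.3% of all 415 rows higher and 28.2% lower.

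Across all 415 rows, 55 were higher in mimic by 2-fold or more, which is 13.3% of the rows, and 117 were lower by 2-fold or more, which is 28.2%. The remaining 243 rows were less than 2-fold apart. Lower rows thus outnumbered higher ones in the deposited values, where 32.0% of the rows past the limit were higher. The median log2 ratio of all rows was -0.31, the middle 50% of rows ran from -1.20 to 0.49, and the 5th and 95th percentiles were -3.01 and 1.84. The split depends on scaling. With equal totals 53 rows were higher (12.8%) and 127 lower (30.6%), and the median was -0.38. With median-of-ratios scaling, which moves log2 ratios up by 0.29 except in rows near 0, 77 rows were higher (18.6%) and 100 lower (24.1%), the median was -0.02 and the higher share of rows past the limit was 43.5%. Under all 3 scalings 53 rows stayed higher and 100 stayed lower.

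**Figure D1:**
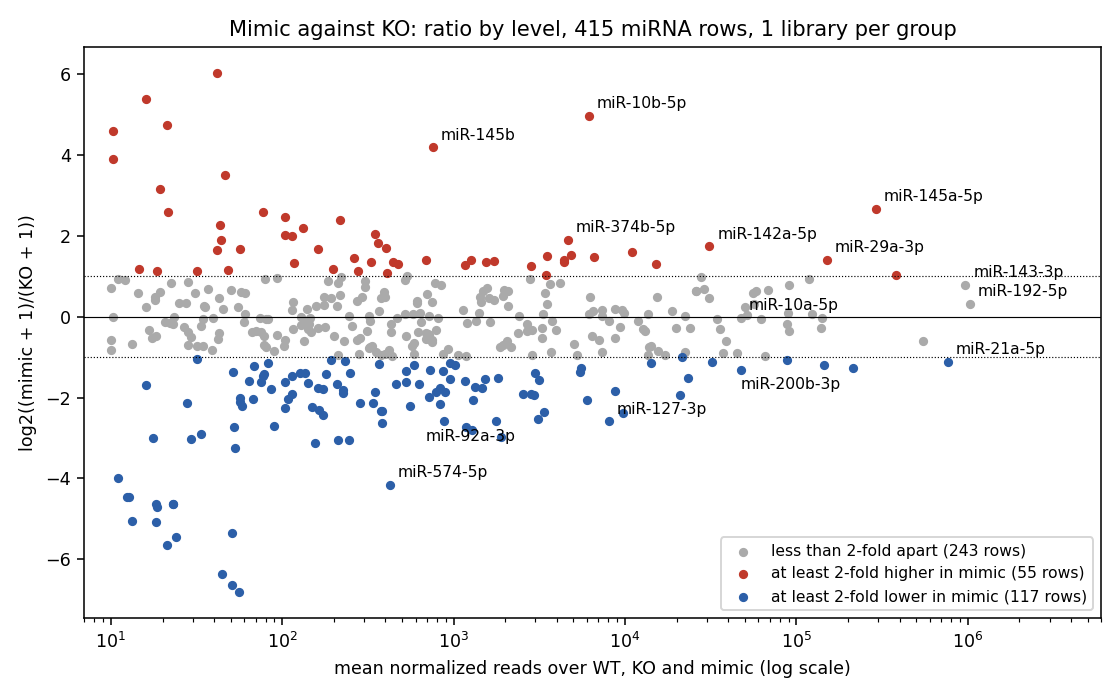
Each point is 1 of the 415 miRNA rows, with the mean normalized reads of WT, KO and mimic on a log axis and the log2 ratio of mimic over KO on the vertical axis, values as deposited. Dotted lines mark 2-fold, red points are the 55 higher rows and blue points the 117 lower rows. miR-10b-5p lies at 4.97, and the widest ratios belong to rows of low mean.

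Rows past the 2-fold limit were found at every level. Among the 113 rows with a mean from 10 to 100 normalized reads, 17 were at least 2-fold higher and 36 lower, with a median log2 ratio of -0.35. Among the 150 rows from 100 to 1000, 19 were higher and 47 lower, the median being -0.45. The lower rows outnumbered the higher rows in each of these low bands. Among the 91 rows from 1000 to 10000, 13 were higher and 24 lower, and among the 48 rows from 10000 to 100000, 3 were higher and 7 lower. The 13 rows at 100000 or more split evenly, with 3 higher and 3 lower and a median of 0.06. Ratios of the rarest miRNAs rest on few reads, and the read depth behind the normalized values is unknown.

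A handful of abundant miRNAs made most of the difference in reads. Over the 162 rows that were higher by any amount, the gains summed to 2321400 normalized reads. Of that sum, 73.1% came from 4 miRNAs: miR-143-3p with 701417, miR-145a-5p with 446512, miR-27b-3p with 289043 and miR-192-5p with 259663. Over the 251 rows that were lower by any amount, the losses summed to 1936120 normalized reads, and 61.2% of them came from miR-21a-5p, miR-200a-3p and miR-200b-3p. The 10 most abundant rows held 66.7% of all reads in KO and 70.4% in mimic.

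The miRNAs of muscle were the group with the largest gain in reads. The list holds 10 rows, 7 of them at least 2-fold higher and 0 lower, against 13.3% and 28.2% of all rows, and its median log2 ratio was 1.40 beside -0.31 for all rows. The same median was 1.33 with equal totals and 1.69 with median-of-ratios scaling. Its rows summed to 11.8% of the total in WT, against 13.1% in KO and 26.4% in mimic. Most of these reads came from miR-143 and miR-145, which are made from neighbouring genes in smooth muscle and fibroblasts.

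miR-145a-5p, which promotes the contractile state of smooth muscle cells, was listed at 261621 (WT), 83319 (KO) and 529831 (mimic) normalized reads, so that mimic was 6.36 times KO (log2 ratio 2.67). Its 3p product miR-145a-3p stood at 11099, 9886 and 24569 in the same order, a log2 ratio of 1.31. The related miR-145b was at 759, 78 and 1443, a ratio of 18.5. KO was the lowest of the 3 libraries for each of these rows and mimic the highest. miR-145b amounted to 0.290% of miR-145a-5p in WT, against 0.0936% in KO and 0.272% in mimic, and reads of close relatives may be divided between them by the counting.

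miR-143-3p, from the same gene pair, was the most abundant miRNA in the mimic library. Its values were 294225 (WT), 954512 (KO) and 1655929 (mimic) normalized reads, a log2 ratio of mimic over KO of 0.79 on the deposited values and 1.08 under median-of-ratios scaling. miR-143-5p was at 1387, 4827 and 13503, a log2 ratio of 1.48. Unlike miR-145a-5p, both products were already higher in KO than in WT. The ratio of miR-143-3p to miR-145a-5p reads was 1.12 (WT), 11.5 (KO) and 3.13 (mimic), so the products of these neighbouring genes did not keep a constant proportion.

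Among the miRNAs of striated muscle, 3 rows were higher by 2-fold or more. miR-1a-3p, which represses growth genes in heart and skeletal muscle, was listed at 2989 (WT), 7441 (KO) and 22584 (mimic) normalized reads (log2 ratio of mimic over KO 1.60). miR-133a-5p was at 70, 36 and 205 (2.48), and miR-499-5p, which is encoded within a myosin heavy chain gene, at 7, 15 and 34 (1.13). miR-133b-3p, at 2158, 1286 and 1726, had a smaller ratio of 0.42, and miR-486b-5p at 237, 272 and 178 went the other way with -0.61. All 7 kept rows of the muscle markers miR-143, miR-145a, miR-1a, miR-133a and miR-133b were above 0 in all 3 libraries. The row of miR-1a-5p, left out for its low mean, was at 8, 0 and 12. In bulk tissue, fewer or more cells of a type and less or more RNA per cell cannot be told apart, and whether the amount of muscle wall in the mucosal sample differed was not tested. Without the muscle list, the totals were 7063226 in KO and 6260071 in mimic. With those totals made equal, which was chosen after seeing the data, 70 rows were higher and 106 lower.

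**Figure D2:**
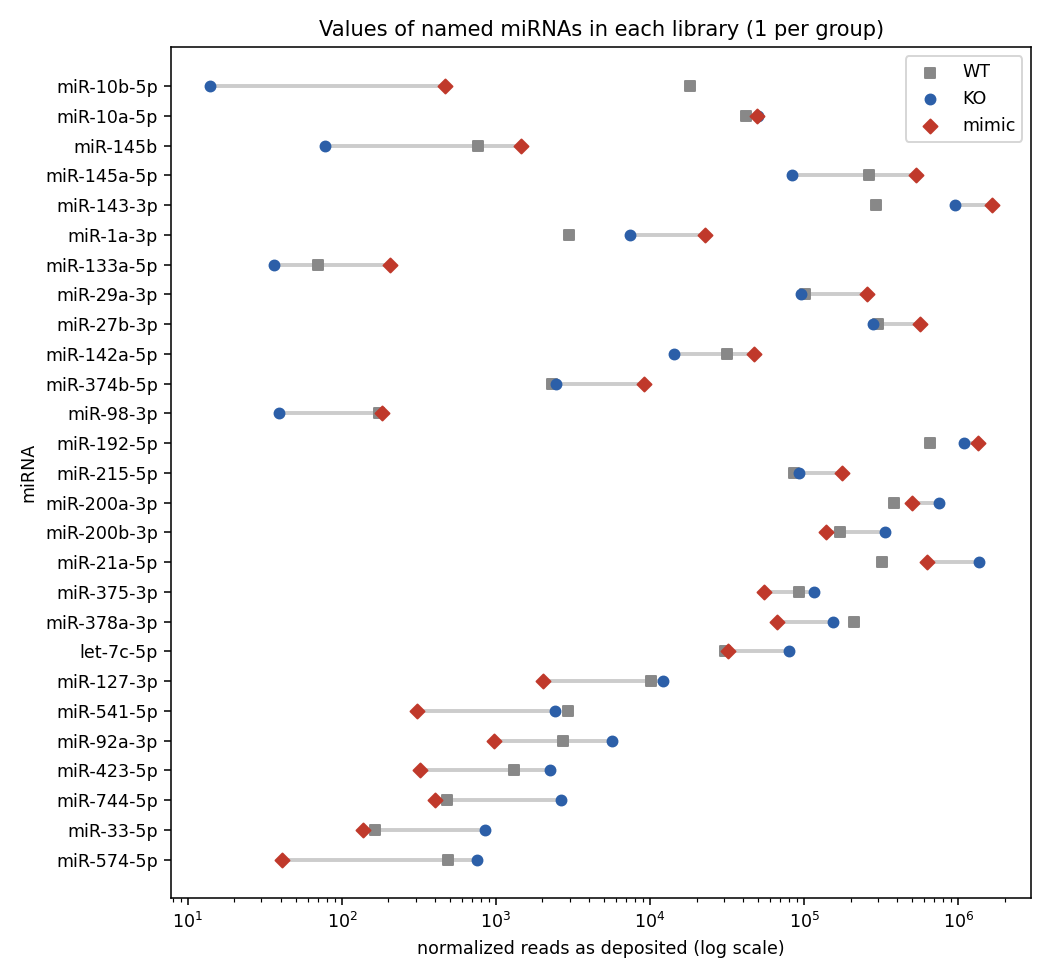
Normalized reads in WT, KO and mimic, on a log axis, for selected miRNAs named in the text, with 1 point per library and no error because each group has 1 library. miR-145a-5p and miR-29a-3p have their highest value in mimic, while miR-21a-5p has its highest value in KO.

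Lists of other cell types that a mucosal sample holds had few rows past the limit or rows on both sides. The 2 rows of the endothelial miR-126a were each less than 2-fold apart: miR-126a-3p was at 38616, 53124 and 82351 normalized reads in WT, KO and mimic, and miR-126a-5p at 21218, 24824 and 40238. Among the 4 rows of red blood cells, 1 was higher and 0 lower. The higher row was miR-451a, at 1615, 849 and 2164 (1.35). The others were less than 2-fold apart, with log2 ratios of 0.45 for miR-144-5p and 0.07 for miR-144-3p. For miR-486b-5p the ratio went the other way, at -0.61. Of the 18 rows of fibroblasts and mesenchyme 4 were higher (22.2%, beside 13.3% of all rows) and 4 lower (22.2%, beside 28.2%). The summed reads of that list were 1.97% of the total in KO and 1.28% in mimic. Of the 18 neuronal rows 3 were higher (16.7%, beside 13.3% of all rows) and 3 lower (16.7%, beside 28.2%). The 18 neuronal rows summed to 0.0583% of the total in KO and 0.0427% in mimic.

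The miR-29 family, known for repressing collagen and other matrix genes, was higher in mimic in its main arm. Of its 6 rows, 4 were at least 2-fold higher (66.7%, beside 13.3% of all rows) and 1 lower (16.7%, beside 28.2%), with a median log2 ratio of 1.39. miR-29a-3p was at 101418 (WT), 95703 (KO) and 255114 (mimic) normalized reads, a log2 ratio of 1.41. miR-29c-3p was at 4730, 2314 and 6116 (1.40), and miR-29b-3p at 1249, 1086 and 2808 (1.37). The mature 3p forms, which share the seed printed above, thus had nearly equal ratios although they come from genes on chromosomes 1 and 6. Summed over that seed, reads were 107397 (WT), 99103 (KO) and 264038 (mimic). The 5p products differed among themselves: miR-29a-5p was at 219, 151 and 418 (1.46), miR-29c-5p at 287, 230 and 302 (0.39) and miR-29b-5p at 32, 121 and 51 (-1.23).

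The miR-23, miR-27 and miR-24 group, encoded in a pair of paralogous clusters on chromosomes 8 and 13, was higher mostly by less than 2-fold. Of its 8 rows 2 were at least 2-fold higher (25%, beside 13.3% of all rows) and 0 lower, with a median log2 ratio of 0.63. miR-27b-3p, which represses regulators of lipid metabolism, was at 299991 (WT), 277980 (KO) and 567023 (mimic) normalized reads. Its log2 ratio of mimic over KO was 1.03 as deposited but 0.96 with equal totals, so it lies on the 2-fold limit. miR-27a-3p was at 96824, 64676 and 111800 (0.79). The seed of these miRNAs held 5.23% of the sequence-matched reads in KO and 11.5% in mimic. Sequence-matched reads leave out miR-143 and miR-145a, whose names matched no sequence. Their rows summed to 1052544 reads in KO and 2223832 in mimic, so matched reads are a smaller part of mimic than of KO. Of all reads, miR-27b-3p held 3.42% in KO and 6.66% in mimic, and miR-27a-3p 0.796% and 1.31%.

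The epithelial miRNAs were split by member rather than moving as a group. Of 20 rows, 1 was at least 2-fold higher (5.0%, beside 13.3% of all rows) and 5 lower (25%, beside 28.2%), and the median log2 ratio was -0.15 on the deposited values and 0.14 under median-of-ratios scaling. Together they made up 31.9% of the total in WT, against 31.9% in KO and 29.2% in mimic. miR-192-5p, the most abundant of them and a p53-regulated miRNA of enterocytes, was at 656011 (WT), 1081718 (KO) and 1341381 (mimic) normalized reads (0.31). miR-215-5p was at 85529, 92654 and 175976 (0.93), and miR-194-5p at 85675, 169274 and 165965 (-0.03). The higher row of the list was miR-215-3p, at 4718, 1875 and 3846 (1.04, and 0.97 with equal totals). With median-of-ratios scaling miR-215-5p also passed the limit (1.21) and miR-194-5p changed sign (0.26).

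The miR-200 family, which holds epithelial identity by repressing Zeb1 and Zeb2, divided within the seed groups printed above. miR-200b-3p was listed at 171853 (WT), 334093 (KO) and 139362 (mimic) normalized reads, a log2 ratio of mimic over KO of -1.26, and -0.97 with median-of-ratios scaling. miR-200c-3p, with the same seed, was at 17423, 39162 and 13609 (-1.52). The third member of that seed, miR-429-3p, ran the other way, at 83919, 46991 and 74855 (0.67). For miR-200b-3p and miR-200c-3p KO was the highest library, and for miR-429-3p it was the lowest.

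The seed AACACUG showed a smaller split. miR-200a-3p was at 380522 (WT), 754583 (KO) and 498181 (mimic) normalized reads (-0.60), and miR-141-3p at 54818, 43461 and 51514 (0.25). miR-200a, miR-200b and miR-429 are neighbours at chr4:156053905-156055750, so the opposite ratios fell within 1 cluster. The cluster of miR-141 and miR-200c on chromosome 6 likewise held rows on both sides of 0. Summed by seed, AAUACUG reads were 420246 in KO and 227826 in mimic, and AACACUG reads 798044 and 549695. Further lower rows of the epithelial list were miR-205-5p, typical of stratified epithelium, at 6205, 9595 and 2282, and miR-200b-5p at 912, 2681 and 783.

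The endocrine list of 10 rows had 1 higher (10%, beside 13.3% of all rows) and 3 lower rows (30.0%, beside 28.2%), close to the background, with a median log2 ratio of -0.03 that became 0.26 under median-of-ratios scaling. miR-375-3p, which restrains insulin secretion in pancreatic beta cells and is abundant in enteroendocrine cells, was at 93198 (WT), 115315 (KO) and 54757 (mimic) normalized reads. Its log2 ratio was -1.07 on the deposited values and -0.79 under median-of-ratios scaling, so the call depends on scaling. miR-7a-5p, also enriched in endocrine cells, was at 3110, 7580 and 7875 (0.06). miR-183-5p was at 24064, 26951 and 13434, while its cluster neighbour miR-182-5p was at 19307, 17564 and 19337.

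The single largest loss of reads was that of miR-21a-5p, a miRNA induced in inflammation, injury and tumours. It was the most abundant row of KO, with 319136 (WT), 1360772 (KO) and 626341 (mimic) normalized reads. The log2 ratio of mimic over KO was -1.12 on the deposited values and -0.83 under median-of-ratios scaling. Its seed alone held 20.8% of sequence-matched reads in KO and 10.6% in mimic, shares that again leave out miR-143 and miR-145a. The passenger miR-21a-3p, at 462, 1062 and 840 (-0.34), was less than 2-fold apart.

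Other miRNAs of inflammation were mostly within 2-fold. The list of inflammation and hypoxia, which includes the products of miR-21a, had 12 rows. Of these, 1 was higher (8.3%, beside 13.3% of all rows) and 2 lower (16.7%, beside 28.2%). The lower rows were miR-21a-5p itself and miR-132-3p (-1.62). The median log2 ratio of the list was -0.37, close to that of all rows. miR-146a-5p, a feedback inhibitor of NF-kB signalling, was at 9351 (WT), 20555 (KO) and 12452 (mimic) normalized reads (-0.72), and miR-155-5p, a miRNA of activated lymphocytes and macrophages, at 605, 693 and 422 (-0.71). The white blood cell list had 2 higher (18.2%, beside 13.3% of all rows) and 1 lower (9.1%, beside 28.2%) of 11 rows. The higher rows were miR-142a-5p, at 31674, 14200 and 47347 (1.74), and miR-147-5p, at 113, 180 and 748 (2.05). The lower row was miR-342-3p, at 4674, 3074 and 1174 (-1.39). The miR-142a hairpin, specific to blood cells, gave discordant arms, since miR-142a-3p was at 1587, 2753 and 1804 (-0.61), and the myeloid marker miR-223-3p was at 1438, 1179 and 1821 (0.63).

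**Figure D3:**
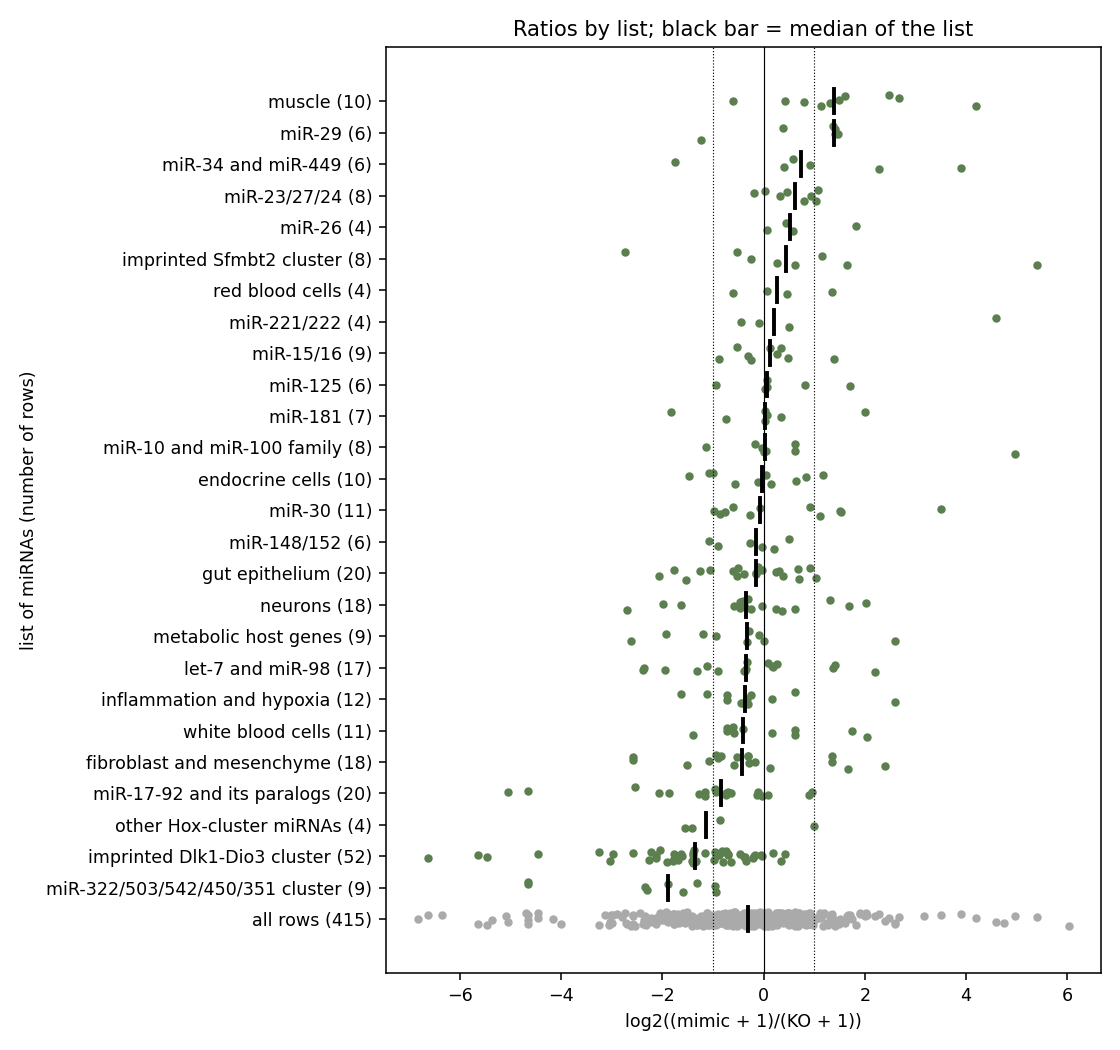
Log2 ratio of mimic over KO for every row of the lists of miRNAs except the endothelial list of 2 rows, which is not drawn. Each row is 1 point, and a bar marks the median of each list. The muscle list has its median at 1.40 and the miR-29 list at 1.39, while the Dlk1-Dio3 list lies at -1.36 and the miR-322 cluster at -1.89, beside -0.31 for all 415 rows.

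The imprinted Dlk1-Dio3 region on chromosome 12, whose miRNAs are made from the maternal chromosome as long noncoding transcripts, held the largest group of lower rows. Of 52 rows, 29 were at least 2-fold lower (55.8%, beside 28.2% of all rows) and 0 higher (beside 13.3%), with a median log2 ratio of -1.36. The median was -1.42 with equal totals and -1.07 with median-of-ratios scaling. Their sum was 31482 (WT), 33940 (KO) and 12688 (mimic) normalized reads. The sequences of 3 members are given because they had the lowest ratios of the list among rows with a mean over 100; miR-127-3p comes from the first stretch of the region, and the other two from the second.
miR-127-3p: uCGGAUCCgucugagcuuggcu
miR-382-5p: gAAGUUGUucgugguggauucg
miR-541-5p: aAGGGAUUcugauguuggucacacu
miR-127-3p, which lies at chr12:109592888-109592909 opposite the imprinted gene Rtl1, was listed at 10203 (WT), 12073 (KO) and 2006 (mimic) normalized reads, a log2 ratio of -2.59. miR-541-5p was at 2949, 2412 and 306 (-2.97), and miR-382-5p at 322, 369 and 44 (-3.04). For all of these, WT and KO lay close together and mimic stood apart below them.

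The lower rows were spread along the whole region. The neighbouring genes from Mir673 to Mir136 at chr12:109571990-109595388 gave 14 rows, 7 of them lower, with a median log2 ratio of -1.19. The genes from Mir379 to Mir410 at chr12:109709060-109743795 gave 38 rows, 22 of them lower, with a median of -1.36. Of all 415 rows, 28.2% were lower and the median was -0.31. Not every member was lower. miR-136-3p, at 3725, 2310 and 2047 normalized reads in WT, KO and mimic, had a ratio of -0.17, and miR-410-3p, at 304, 523 and 458, one of -0.19. The highest ratio in the list was that of miR-758-3p, with 21, 14 and 19 reads (0.42).

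The X-linked cluster of miR-322, miR-503, miR-542, miR-450 and miR-351, active in growing and differentiating mesenchymal cells, was lower in 7 of 9 rows (77.8%, beside 28.2% of all rows), with 0 higher and a median log2 ratio of -1.89. miR-322-5p was at 1029 (WT), 1841 (KO) and 606 (mimic) normalized reads (-1.60), and miR-503-5p at 359, 651 and 128 (-2.34). miR-542-3p was at 90, 466 and 125 (-1.89). The rows less than 2-fold apart, miR-322-3p with -0.95 and miR-351-5p with -0.93, lay just short of the limit. The 3p products of miR-450a and miR-450b hold identical values, and counted once they leave 6 lower of 8 rows.

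miR-17-92 and its paralogs, targets of Myc that act in proliferating cells, had 0 higher (beside 13.3% of all rows) and 8 lower of 20 rows, with a median log2 ratio of -0.84. miR-92a-3p was at 2717 (WT), 5644 (KO) and 973 (mimic) normalized reads (-2.53), and miR-17-5p at 4346, 8688 and 3593 (-1.27). miR-19a-3p was at 634, 2633 and 627 (-2.07) and miR-93-5p at 16824, 17740 and 7958 (-1.16). miR-106b-5p, at 12265, 8351 and 8926 (0.10), was level. The lower rows were 40% of the list beside 28.2% of all rows on the deposited values, but 25% beside 24.1% with median-of-ratios scaling, where 5 rows stayed lower, so the list does not stand apart from the background under that scaling.

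The let-7 family, which restrains growth and is abundant in differentiated tissue, differed between arms. Of 17 rows with miR-98, 5 were lower (29.4%, beside 28.2% of all rows) and 3 higher (17.6%, beside 13.3%), which is near the background. let-7b-5p was at 20853 (WT), 33448 (KO) and 8691 (mimic) normalized reads (-1.94), let-7e-5p at 2350, 6493 and 1268 (-2.36), and let-7c-5p at 30393, 79683 and 32094 (-1.31). The most abundant members did not follow: let-7f-5p was at 51022, 105438 and 112419 (0.09) and let-7g-5p at 50354, 124550 and 97101 (-0.36). The 3 higher rows were all 3p products, namely let-7c-3p at 4669, 2398 and 6158 (1.36), let-7f-3p at 1285, 687 and 1828 (1.41) and miR-98-3p at 175, 39 and 182 (2.19). let-7d-3p, at 14833, 11921 and 2284, was lower (-2.38), so the 3p products did not move as a group either. Summed over 9 rows, the seed GAGGUAG held 486959 reads in KO and 326248 in mimic.

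The miR-30 family gave a similar contrast of arms. The 5p products, which repress genes of mesenchymal transition and autophagy, were level or lower: miR-30a-5p was at 19934 (WT), 85382 (KO) and 81404 (mimic) normalized reads (-0.07), and miR-30e-5p at 24946, 113295 and 57750 (-0.97). Several 3p products were higher: miR-30e-3p was at 3650, 2828 and 8105 (1.52), and miR-30a-3p at 2202, 2167 and 6155 (1.51). Of the 11 rows of the list 4 were higher (36.4%, beside 13.3% of all rows) and 0 lower (beside 28.2%), all 4 of them 3p products. One of the 4 is miR-384-3p, which bears another name and rests on few reads, at 41, 7 and 90 (3.51). miR-30c-3p, at 381, 367 and 215 (-0.77), went the other way.

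Over all hairpins, 142 had both arms among the 415 rows. In 96 of them, or 67.6%, both arms lay on the same side of 0. Both arms were at least 2-fold higher for 4 hairpins, miR-145a, miR-29a, miR-335 and miR-708, and both at least 2-fold lower for 20. In 64 hairpins only 1 arm passed the limit, in 52 neither did, and in 2, let-7c and miR-29b, the arms passed it in opposite directions. Across the 142 hairpins, Pearson's r between the arms' log2 ratios was 0.39 and Spearman's rho 0.43, as a description of arms that share 1 pair of libraries. The more abundant arm was higher in 10 hairpins and lower in 41, with a median of -0.32, and the less abundant arm was higher in 29 and lower in 36, with a median of -0.03. In 32 hairpins the ratios of the arms were at least 4-fold apart.

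**Figure D4:**
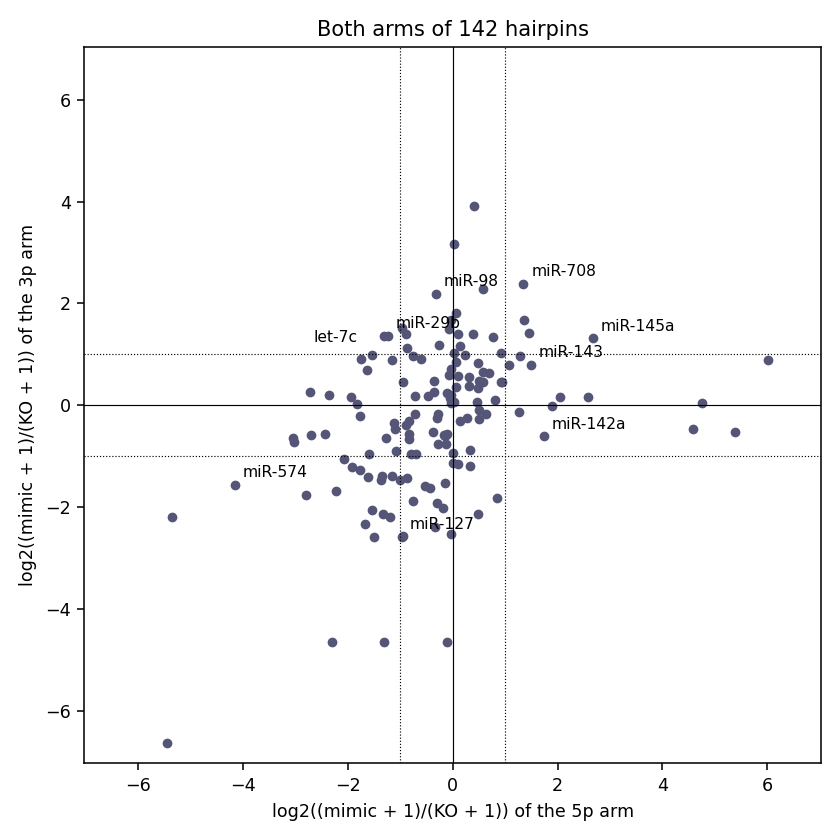
Log2 ratio of mimic over KO for the 5p arm (horizontal) and the 3p arm (vertical) of 142 hairpins, 1 point per hairpin, with dotted lines at 2-fold. Points in the upper right and lower left have both arms on the same side, as for miR-145a and miR-708, while let-7c and miR-29b lie in the upper left, with a lower 5p arm and a higher 3p arm.

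The widest ratios among better measured miRNAs, those with a mean of at least 100 normalized reads, fell on a mixed set of genes. The sequences are those of the 5 lowest and the 5 highest rows that have a sequence and are not on the lists of Dlk1-Dio3, muscle or the miR-10 family, a choice made after their values were seen.
miR-574-5p: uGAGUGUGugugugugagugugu
miR-672-5p: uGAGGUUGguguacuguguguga
miR-1198-5p: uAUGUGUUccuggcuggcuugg
miR-423-5p: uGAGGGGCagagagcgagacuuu
miR-744-5p: uGCGGGGCuagggcuaacagca
miR-708-3p: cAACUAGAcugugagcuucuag
miR-98-3p: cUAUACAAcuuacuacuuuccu
miR-147-5p: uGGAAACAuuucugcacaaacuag
miR-488-3p: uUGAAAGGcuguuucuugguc
miR-181b-1-3p: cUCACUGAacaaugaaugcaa
The first 5 were lower and the last 5 higher in mimic than in KO. The GC share of the lower ones ran from 47.8% to 63.6%, and that of the higher ones from 31.8% to 45.5%. This gap belongs to the rows printed and does not hold for all low rows. For example, miR-541-5p (-2.97) has a GC share of 44.0% and miR-33-5p (-2.62) one of 42.9%. miR-574-5p, which is rich in G and U, lies at chr5:64970328-64970350 in an intron of Fam114a1. It was at 485 (WT), 751 (KO) and 41 (mimic) normalized reads, 18.3-fold lower in mimic than in KO. miR-672-5p was at 185, 254 and 28 (log2 ratio -3.14), and miR-1198-5p at 213, 374 and 44 (-3.06). miR-423-5p, in an intron of Nsrp1 at chr11:77078122-77078144, was at 1302, 2226 and 320 (-2.79), and miR-744-5p, in an intron of Map2k4 at chr11:65734799-65734820, at 479, 2646 and 401 (-2.72). These low rows come from separate host genes.

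On the higher side, miR-374b-5p, from an intron of the noncoding gene Ftx at chrX:103573112-103573133, was at 2309 (WT), 2439 (KO) and 9151 (mimic) normalized reads (1.91). miR-335-3p, from an intron of the imprinted gene Mest at chr6:30741354-30741375, was at 127, 85 and 273 (1.67), and its 5p arm at 185, 223 and 574 (1.36). miR-708-3p, from an intron of Tenm4, was at 107, 86 and 455 (2.39), with miR-708-5p at 320, 284 and 725 (1.35). miR-26a-3p was at 368, 158 and 560 (1.82) while the abundant miR-26a-5p was level at 120950, 122738 and 128088 (0.06).

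Over the 341 rows with a matched sequence, the ratio was lower for miRNAs richer in G and C when these bases were summed. Spearman's rho between the GC share of the mature sequence and the log2 ratio was -0.24 and Pearson's r -0.23 (n = 341), as a description over rows that share 1 pair of libraries. Of the 34 rows with a GC share below 35%, 9 were at least 2-fold higher (26.5%, beside 13.3% of all 415 rows). In that bin 7 were lower (20.6%, beside 28.2%), with a median log2 ratio of 0.06. Of the 39 rows at 60% or above, 3 were higher (7.69%) and 20 lower (51.3%). Their median was -1.14 on the deposited values and -0.86 under median-of-ratios scaling. By single bases, rho was -0.19 for the share of G, -0.03 for C, 0.20 for A and 0.02 for U, so C took little part. The 5 bins between had medians from -0.18 to -0.48. Spearman's rho was -0.22 over the 128 matched rows whose mean reached 1000, and -0.23 over the 292 rows outside the Dlk1-Dio3 list. KO against WT, which shares the KO library, had a rho of -0.08, and mimic against WT, which shares the mimic library, one of -0.32. The part of base composition in the results above was not tested.

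**Figure D5:**
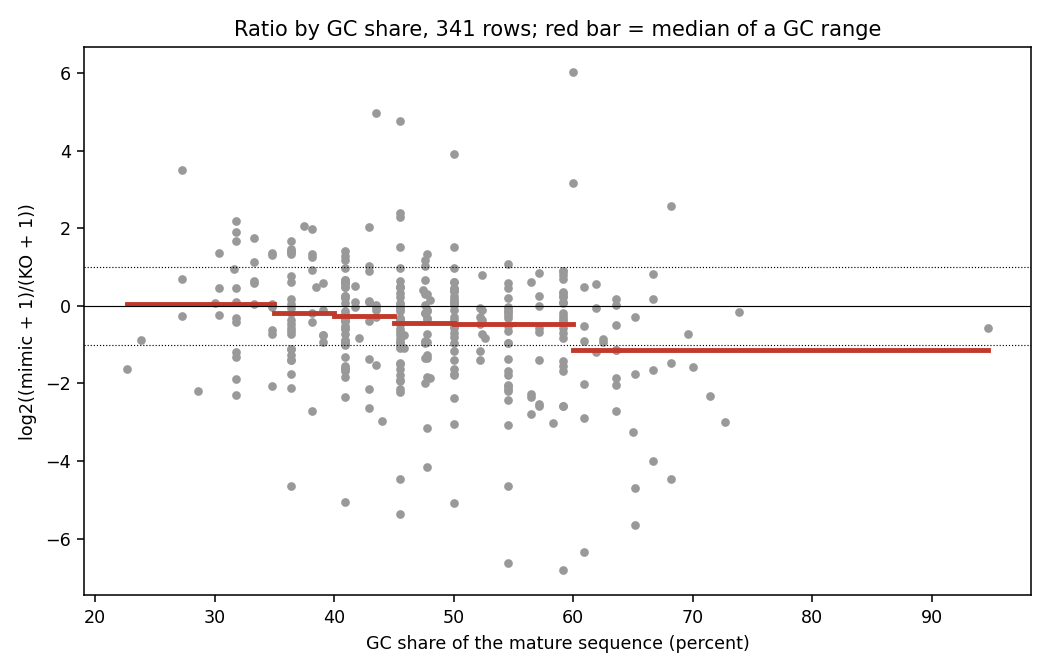
Log2 ratio of mimic over KO against the GC share (%) of the mature sequence for 341 matched rows, 1 point per row, with a line through the median of each GC bin. The median runs from 0.06 below 35% GC to -1.14 at 60% GC or above.

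Neighbouring miRNA genes, grouped where gaps were at most 10 kb, formed 25 clusters with 155 rows. Of these clusters, 12 held lower and no higher rows, 8 held higher and no lower rows, 3 held both and 2 held no row past the limit. The clusters with lower rows included, apart from those on chromosome 12 and the miR-322 group, the 8 rows from Mir500 to Mir532 on the X chromosome. Of these 8 rows 4 were lower, beside 28.2% of all rows, and their median log2 ratio was -0.80. Among clusters with higher rows, the 3 rows from Mir421 to Mir374c on the X chromosome had a median of 0.94, with miR-374b-5p past the limit.

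A set of metabolic miRNAs had 1 higher (11.1%, beside 13.3% of all rows) and 3 lower (33.3%, beside 28.2%) of 9 rows, near the background, with a median log2 ratio of -0.34. miR-33-5p, which lies in an intron of the sterol regulator gene Srebf2 and represses the cholesterol exporter Abca1, was at 164 (WT), 848 (KO) and 137 (mimic) normalized reads (-2.62). miR-378a-3p, from an intron of Ppargc1b, a coactivator of mitochondrial genes, was at 211958, 153738 and 66829 (-1.20, and -0.91 with median-of-ratios scaling), and miR-378a-5p at 4742, 3258 and 857 (-1.93). miR-107-3p, from an intron of a pantothenate kinase gene, was at 2974, 4998 and 3959 (-0.34). KO was the highest library for miR-33-5p, and mimic the lowest for the products of miR-378a.

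The remaining Hox-cluster miRNAs, miR-196a and miR-196b, gave 4 rows with 0 higher and 2 lower (50.0%, beside 28.2% of all rows) and a median log2 ratio of -1.14, or -0.86 with median-of-ratios scaling. miR-196b-5p, which represses Hox messenger RNAs, was at 9152 (WT), 8294 (KO) and 4556 (mimic) normalized reads (-0.86). miR-196a-5p was at 1894, 1992 and 680 (-1.55). Neither had a KO value far from WT. The passenger product miR-196a-3p went the other way, at 502, 367 and 733, just short of the 2-fold limit on the deposited values and 1.28 with median-of-ratios scaling.

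Rows listed at 0 are given without a fold. In KO 7 of the 415 rows were listed at 0 and in mimic 17. The 6 rows at 0 in KO but not in mimic had at most 64 normalized reads in mimic, the highest being miR-490-5p. The 16 rows at 0 in mimic but not in KO had at most 112 in KO, the highest being miR-877-3p, followed by miR-485-3p with 98. All of these count among the rows past the 2-fold limit, 6 as higher and 16 as lower. At the limit on the mean, miR-3090-3p was just inside with 11, 7 and 12 normalized reads in WT, KO and mimic, and miR-491-5p just outside with 8, 20 and 0.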

How the data were processed

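Small RNA of colonic mucosa was sequenced in 3 libraries, 1 per group (total RNA by Trizol, TruSeq small RNA kit, single-end reads, per the labels' protocols). The values are a score: per the file headers, the authors normalized the miRNA reads, and the values are whole numbers. Column sums were 4872446 (WT), 8124898 (KO) and 8510085 (mimic). Per the submitters' processing notes the build is mm10. How reads were aligned, counted and normalized is not given in the sources used, and the depth is unknown, so no counting interval is given. The deposited difference columns, of the unit other, were not used.

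Rows whose mean over the 3 libraries reached 10 were kept. Ratios are log2((mimic + 1)/(KO + 1)), with a limit of 2-fold, on the values as deposited, with equal totals and with median-of-ratios scaling (Python 3.11.15, numpy 2.4.6, pandas 2.3.3). With 1 library per group no test was run. The counting was tested on simulated data. The members and the 27 lists of miRNAs were chosen with earlier results of these data known. The text names the miR-10 family, the 15 highest and 15 lowest ratios among the 302 rows whose mean reached 100, the 10 most abundant rows, the 10 largest differences in reads each way, abundant or changed rows of each list, discordant arms and the largest seed sums, and gives only some of these. Sequences and miRNA positions are from RefSeq (GRCm38.p6), host genes from GENCODE vM21. Some rows share a name: miR-129-3p and miR-125b-3p occur 2 times each, and both rows were kept. Sequences of some miRNAs are not reported here.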

Additional observations from a re-analysis of the deposited data

How the results depend on the processing

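With 1 library per group, no replicate could be left out. No paired analysis was possible because each group has 1 library and no test was run. The balance of higher and lower rows depended on scaling: the higher share of rows past the limit was 32.0% as deposited, 43.5% with median-of-ratios scaling, 39.8% with equal totals outside the muscle list (chosen after seeing the data) and 23.6% when a hairpin was counted by its more abundant arm alone. Higher rows numbered 55 as deposited, 25 with the more abundant arm, 95 at a 1.5-fold limit and 18 at a 4-fold limit. Lower rows numbered 117 as deposited, 81 with the more abundant arm and 53 at a 4-fold limit. A nearer or farther limit counts more or fewer rows by construction. The shift with the more abundant arm is not only one of number, because higher rows fell by a larger part than lower rows. In hairpins with both arms, the more abundant arm was higher in 10 and the less abundant arm in 29. The log2 ratio of miR-10b-5p ranged from 4.32 (pseudocount of 10) to 5.25 (median of ratios). No row past the limit passed it the other way with equal totals or median-of-ratios scaling. Signs of small ratios did change: 10 rows with equal totals and 38 with median-of-ratios scaling had the other sign, as had 2 and 4 list medians, among them gut epithelium (0.14), endocrine cells (0.26), miR-30 (0.22) and the miR-148 list (0.13) with median-of-ratios scaling and the miR-10 family (-0.03) and miR-181 (-0.04) with equal totals. With a mean of at least 100, fewer rows gave the medians of miR-34 (-0.67) and miR-221 (-0.10) the other sign. For the named miRNAs 570 settings left the row on the same side of the limit, 12 took it inside and 6 took it past, among them miR-200b-3p (-0.97), miR-21a-5p (-0.83), miR-375-3p (-0.79), let-7a-5p (-0.84), miR-215-5p (1.21) and miR-27a-3p (1.08) with median-of-ratios scaling. Rare miRNAs carry the least certain ratios, since the reads behind a normalized value are unknown.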

Other observations

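Some groups outside the main account are given as values, beside 13.3% higher and 28.2% lower among all rows. The imprinted Sfmbt2 cluster on chromosome 2, a rodent-specific array of miR-466, miR-467 and miR-669 genes, had 3 higher (37.5%) and 1 lower (12.5%) of 8 rows. Its median log2 ratio was 0.44, on low levels throughout: miR-467e-5p was at 30 (WT), 35 (KO) and 79 (mimic) normalized reads, and miR-467b-5p at 39, 20 and 65. Reads of these near-identical copies may be divided by the counting. The miR-34 family, transcriptional targets of p53, was split, and the sign of its median depended on the filter: miR-34a-5p was at 1526, 1893 and 564 (-1.75), miR-34c-5p at 282, 668 and 882 (0.40) and miR-34b-3p at 50, 13 and 67 (2.28). The miR-181 family held 1 higher (14.3%) and 1 lower (14.3%) of 7 rows, with miR-181a-5p at 7924, 14379 and 4051 (-1.83). Of the miR-26 list, 1 of 4 rows was higher (median 0.51), of miR-15 and miR-16 1 of 9 (0.13), of miR-125 1 of 6 (0.07) and of miR-221 and miR-222 1 of 4 (0.20, but -0.10 with a mean of at least 100), each with 0 lower. The miR-148 and miR-152 list had 0 higher and 1 lower (16.7%) of 6 rows (median -0.15, but 0.13 with median-of-ratios scaling).

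miR-122-5p, the dominant miRNA of hepatocytes, was listed at 11 (WT), 7 (KO) and 47 (mimic) normalized reads. miR-384-3p was at 41, 7 and 90, and miR-488-3p, from an intron of the neuronal gene Astn1, at 25, 56 and 232 (2.03). miR-148a-3p, abundant in epithelium, was at 37461, 209390 and 173201 (-0.27), far from WT in both knockout libraries. miR-103-5p was listed at 31 in WT and at 0 in KO and mimic. Of the 56 rows left out for a low mean, 20 were at 0 in both KO and mimic, and none exceeded 20 normalized reads in KO or 14 in mimic. The rows in none of the lists numbered 131, with 10 higher (beside 13.3% of all rows) and 41 lower (beside 28.2%). Their median was -0.35, close to the median of all rows.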
